A study of Mus musculus with 23 samples.

Results

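The genes that build the inner root sheath of the hair follicle were followed in mouse back skin after ultraviolet light (UV), with and without the drug AG825. They were chosen by name as 8 genes: the keratins Krt25, Krt27, Krt28, Krt71 and Krt73, trichohyalin (Tchh), the peptidylarginine deiminase Padi3 and the transglutaminase Tgm3. Of these, 6 have a probe set that names them alone among the 12106 genes measured, 1 probe set each: 1418173_at for Krt25, 1449378_at for Krt27, 1448457_at for Krt71, 1434425_at for Tchh, 1419767_at for Padi3 and 1421355_at for Tgm3. No probe set in the annotation used here names Krt28 or Krt73, so these were not analysed.

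The inner root sheath is the layer of cells that encloses and moulds the growing hair shaft, and it is built while the follicle is in its growth phase, anagen. Its cells fill with keratin filaments, each made of a type I keratin paired with a type II keratin, and with granules of trichohyalin, a long arginine-rich protein that becomes the matrix between the filaments. Peptidylarginine deiminases turn arginines of trichohyalin into citrulline, which loosens the granules, and transglutaminases then cross-link trichohyalin and keratins into a rigid tube that is later shed.

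Whole back skin of adult female mice of the outbred CD-1 stock was profiled on 23 arrays. The hair had been clipped and shaved, and DMSO alone or 4 mg of AG825 in DMSO, an inhibitor of the receptor kinase Erbb2, was painted on 2 h before 10 kJ/m2 of mostly UVB or a sham exposure, so every group carries DMSO and shaving. DMSO skin gave 4 arrays after sham, 4 at 6 h after UV (6 h) and 4 at 24 h after UV (24 h), and AG825 skin gave 4, 4 and 3. Sham skin was taken at 6 h, so at 24 h the effect of UV and the later time of sampling cannot be told apart. The stage of the hair cycle is not given in the sources used here, nor is whether the lettered replicates come from separate animals. The p-values therefore measure only how much these arrays vary, which may be technical. Values are log2 intensities made by RMA, a method that merges the probes of a probe set. In whole skin, fewer inner root sheath cells and less RNA in each cell cannot be told apart.

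The share of probe sets called present on an array ran from 62.3% to 71.4%, and was lowest on DMSO 6 h replicate E at 62.3%, on AG825 6 h replicate A at 64.0% and on DMSO 6 h replicate F at 64.1%. Arrays of one group correlated over all probe sets at r between 0.957 and 0.992. None of the epidermal, sebaceous, melanocyte, leukocyte, muscle or adipocyte markers measured was called absent on all 23 arrays. A marker that escapes an absent call on any array meets this, so the tissue label was not tested by it.

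The keratin members lie in the keratin clusters of chromosomes 11 and 15. On chromosome 11 Krt25 lies between Krt24 and Krt26, and Krt27 between Krt26 and Krt28. On chromosome 15 Krt71 lies between Krt5, the basal keratin of epidermis, and Krt72, another type II keratin of the inner root sheath. Tchh is on chromosome 3 between Rptn and Tchhl1, 2 genes of the same S100 fused-type family, and Padi3 is on chromosome 4 between Padi4 and Padi1. Tgm3 is on chromosome 2. The promoters of the 3 keratins that fell after UV and that of Padi3, which fell about as far, are shown so that their letters can be compared. Each is the 250 bases before the annotated start on the minus strand of GRCm38.p6, from RefSeq, and capitals mark the letters TATAAA, the core of a TATA box, and AGATAA, a form of the site bound by GATA factors.
Krt25, chr11:99322952-99323201: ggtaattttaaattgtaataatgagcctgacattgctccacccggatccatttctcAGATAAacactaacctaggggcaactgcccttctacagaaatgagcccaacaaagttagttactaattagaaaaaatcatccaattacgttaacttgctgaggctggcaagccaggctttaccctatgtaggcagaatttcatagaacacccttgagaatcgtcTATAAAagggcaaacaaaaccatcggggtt
Krt27, chr11:99351119-99351368: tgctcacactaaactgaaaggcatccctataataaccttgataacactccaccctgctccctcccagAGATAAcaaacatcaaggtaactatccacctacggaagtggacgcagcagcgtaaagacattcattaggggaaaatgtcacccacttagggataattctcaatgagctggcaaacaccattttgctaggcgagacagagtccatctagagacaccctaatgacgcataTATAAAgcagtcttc
Krt71, chr15:101743098-101743347: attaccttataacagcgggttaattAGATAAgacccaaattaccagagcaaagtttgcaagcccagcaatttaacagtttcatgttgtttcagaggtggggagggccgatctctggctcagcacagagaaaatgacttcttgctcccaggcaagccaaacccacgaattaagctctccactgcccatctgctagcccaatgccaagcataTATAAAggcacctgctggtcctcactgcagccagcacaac
Padi3, chr4:140810649-140810898: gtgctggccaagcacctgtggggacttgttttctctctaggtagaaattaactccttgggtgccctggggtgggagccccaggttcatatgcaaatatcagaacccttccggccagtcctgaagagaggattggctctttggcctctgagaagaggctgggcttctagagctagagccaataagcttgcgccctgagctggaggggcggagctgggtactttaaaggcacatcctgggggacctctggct
In Krt25 the letters TATAAA begin 30 bases before the start, in Krt27 15 and in Krt71 40. AGATAA begins 194 bases before the start in Krt25, 183 in Krt27 and 225 in Krt71. The Padi3 window holds neither. Over the windows of all 8 genes, both strands searched, TATAAA was found in 6 (all but Tchh and Padi3), against 12.4% of the 32851 windows of all genes. AGATAA was found in 5 (Krt25, Krt27, Krt71, Krt73 and Tchh), against 9.99%. Of 2 other motifs searched, TAATTA, a homeodomain site that overlaps AGATAA in Krt71, was found in 4, against 4.84%, and CTTTGA, a site of Tcf and Lef factors, in 2, against 13.8%. The annotated start of Tchh coincides with an ATG, so its window may not be the promoter used. These matches are descriptions of the letters, and the motifs were chosen after the windows had been looked at.

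The first comparison asked what UV alone does by 6 h. In DMSO skin 5 of the 6 measured genes fell: the keratins Krt25, Krt27 and Krt71, trichohyalin and Padi3 were each between 11.4-fold and 25.9-fold lower than after sham in measured values, with irradiated and sham arrays not overlapping. On some irradiated arrays probe sets were called absent, which means not above background. Both dChip and GCOS, programs that process array scans, gave this call on 1 of 4 arrays for Krt25 and for Tgm3. They gave it on 2 of 4 for Krt27 and Padi3. Those arrays enter the folds at their measured values, so the folds of these genes depend on the background level there. Tgm3 did not pass the test. A gene is said to fall or rise where limma's test, adjusted over all 19645 probe sets by the Benjamini-Hochberg method, gave an adjusted p under 0.05. Of all probe sets 18.4% passed in this comparison, 10.7% lower, and 9.82% were lower without overlap. The median log2 difference of the 6 genes was -3.70, against 0.01 over all probe sets.

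**Figure D1:**
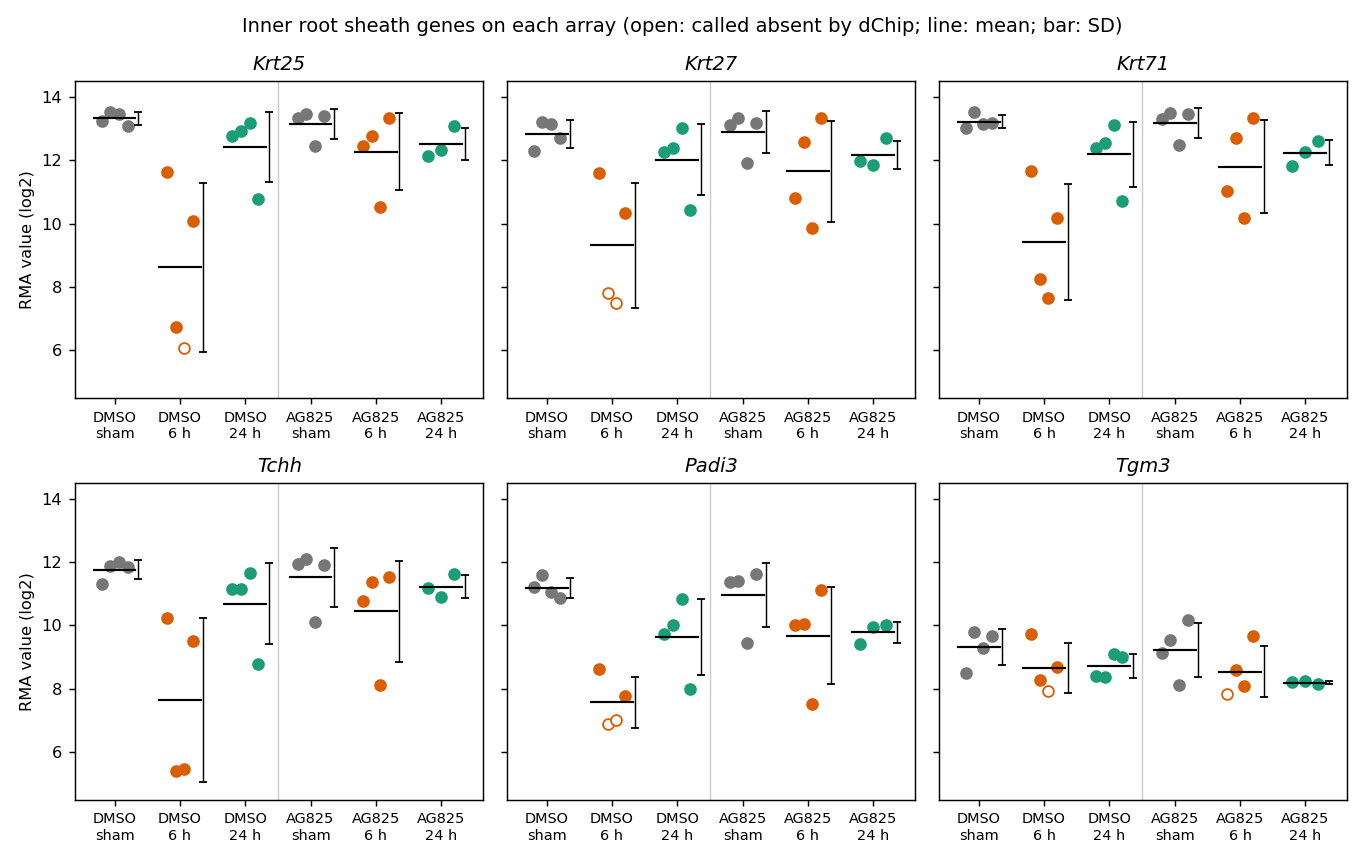
Log2 RMA value of each of the 6 measured genes (vertical axis) on each of the 23 arrays, by group; open circles are arrays on which dChip called the probe set absent, black lines are group means and bars are 1 SD. In Krt25, Krt27, Krt71 and Tchh the DMSO 6 h arrays E and F lie far below all others, and in Padi3 they are the lowest with other arrays close above. In Tgm3 DMSO 6 h overlaps DMSO sham.

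Krt25 is a type I keratin found in all layers of the inner root sheath. After sham its log2 value was 13.23, 13.53, 13.45 and 13.08 on arrays A, B, C and D of DMSO skin. At 6 h it was 11.64 on array C, 6.74 on E, 6.07 on F and 10.07 on G. The sham arrays lay within 0.45 of each other and the irradiated arrays over a range of 5.57, and the highest irradiated array was still below the lowest sham array. The difference was -4.69 ± 0.86 (SE), a 25.9-fold fall with a 95% interval from 7.46 to 89.7 (limma, adjusted p = 0.000698). On array F the probe set was called absent by both tools.

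Krt27, also type I, is the closest of the measured genes in pattern to the type II keratin Krt71. Krt27 had values of 12.28, 13.19, 13.15 and 12.70 on the sham arrays A to D and of 11.59, 7.82, 7.51 and 10.34 on the irradiated arrays C, E, F and G. It fell 11.4-fold in measured values (log2 difference -3.51 ± 0.78, limma, adjusted p = 0.00323). Arrays E and F were again the low ones, and on both the probe set was called absent by both tools, so only C and G gave a level above background.

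Krt71 is the type II partner, and mice with a dominant mutation of it have the wavy Caracul coat. Its values were 13.02, 13.52, 13.16 and 13.18 after sham and 11.65, 8.25, 7.66 and 10.17 at 6 h, in the same order of arrays. It fell 13.8-fold (log2 difference -3.79 ± 0.71, limma, adjusted p = 0.000791). On irradiated arrays E and F dChip called it present and GCOS called it absent.

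Tchh encodes trichohyalin, the granule protein. On the sham arrays its value ran from 11.32 on A to 12.01 on C. At 6 h it was 10.24 on C and 9.52 on G, but 5.39 on E and 5.47 on F. The irradiated arrays thus fell into 1 pair closer to sham and 1 pair far below it, and the SE was the largest of the 6 genes. The fall was 17.2-fold (log2 difference -4.11 ± 0.93, limma, adjusted p = 0.00371).

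Padi3 is the deiminase that acts on trichohyalin. Its sham values were 11.23, 11.59, 11.05 and 10.87, and its values at 6 h were 8.63 on C, 6.89 on E, 7.02 on F and 7.78 on G. All 4 irradiated arrays were well below sham, with a range of 1.74 on the log2 scale. Both tools called the probe set absent on E and F, so only C and G gave a level above background and the range is not that of 4 measured levels. The fall was 12.2-fold in measured values (-3.61 ± 0.64, limma, adjusted p = 0.000492), and this was the smallest adjusted p of the 6 genes.

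Tgm3 cross-links trichohyalin and keratins in the sheath and is also made in the upper layers of the epidermis. Its mutation gives mice the wavy coat called wellhaarig. Its values were 8.51 to 9.78 after sham and 9.74, 8.27, 7.92 and 8.70 on the irradiated arrays C, E, F and G. Array C was below only the highest sham array, and the groups overlapped. The difference of -0.65 had a 95% interval from -1.55 to 0.24 (limma, adjusted p = 0.316). That interval lies wholly above the interval of Krt25, from -6.49 to -2.90. However, Tgm3 started nearer background, with a DMSO sham mean of 9.31 against 13.32 for Krt25. On array F, at 7.92, both tools called Tgm3 absent, and on E GCOS alone did. Tgm3 thus had less room for a measured fall than Krt25, and whether the falls of these genes differ was not tested.

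These falls rested on arrays that differ among themselves. Leaving out any 1 of the 8 arrays kept all 5 calls, with Krt25 between -5.70 and -3.84 on the log2 scale. With the 3 arrays of lowest percent present left out, which removes irradiated arrays E and F and is a setting chosen after the data had been seen, Krt25, Krt71 and Padi3 still passed, Krt25 at -2.47 with an adjusted p of 0.0259 in limma. Krt27 at -1.86 (adjusted p = 0.143) and Tchh at -1.88 (adjusted p = 0.179) did not. With the dChip signal in place of RMA the Krt25 difference was -2.89, and with the GCOS signal, which lacks array G, it was -5.55.

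At 24 h after UV in DMSO skin none of the 6 genes passed, against 8.72% of all probe sets and 3.83% lower, and at an unadjusted p under 0.05 only Padi3 did, as did 20.2% of probe sets. All 6 differences from sham were negative, with a median of -0.97 against -0.03 over all probe sets. Krt25 had 12.77, 12.94 and 13.17 on arrays A, B and C and 10.77 on E, so 3 arrays were close to the lowest sham array and 1 was far lower. Its difference was -0.91 with a 95% interval from -2.70 to 0.88 (limma, adjusted p = 0.677). Krt27, Krt71 and Tchh had the same array E as their lowest, at 10.43, 10.73 and 8.79, and differences of -0.81, -1.02 and -1.07 with adjusted p-values from 0.499 to 0.685.

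Padi3 stood lowest relative to sham at 24 h. Its values were 9.73, 10.01, 10.84 and 7.99 on arrays A, B, C and E, all below the lowest sham array at 10.87, where 7.35% of probe sets were lower without overlap. The difference was -1.54 ± 0.64 (limma, adjusted p = 0.162). Under a fit with the replicate letters as a block it was -1.90 with an adjusted p of 0.0296, but the labels do not say what the letters mark. The share of all probe sets passing in that fit is not given here. Tgm3 had 8.36 to 9.10 and a difference of -0.59 (adjusted p = 0.53).

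Set directly against the arrays at 6 h, the arrays at 24 h were higher by 2.07 to 3.78 on the log2 scale in 5 genes, and by 0.06 in Tgm3. No gene passed the adjusted test, in which 0.0458% of probe sets did. All 5 were under an unadjusted p of 0.05, as were 6.64% of probe sets in the higher direction. Krt25 came closest, at 3.78 ± 0.86 with an adjusted p of 0.0755 in limma. This count was sensitive to single arrays: without DMSO 6 h replicate C 4 genes passed (Krt25, Krt27, Krt71 and Tchh, Krt25 at 4.79 with an adjusted p of 0.00552), and without DMSO 24 h replicate E Krt25 alone did, at 4.33 (adjusted p = 0.0401). The share of all probe sets passing in these fits is not given here. The comparison of 24 h with 6 h uses the same 4 arrays at 6 h as the fall above, so the 2 results are not independent.

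In skin painted with AG825 the fall at 6 h was not established for any of the 6 genes: 0 passed in limma, where 2.73% of all probe sets did and 1.26% were lower, and 0 had an unadjusted p under 0.05, as 15.2% of probe sets did. All 6 differences were negative, with a median of -1.15 against 0.03 over all probe sets. Krt25 was 13.32, 13.45, 12.44 and 13.39 on the sham arrays B, C, D and E, and 12.44, 12.76, 10.53 and 13.34 on the irradiated arrays A, B, D and E. One irradiated array was far below sham and another at the sham level, and the difference was -0.88 with a 95% interval from -2.68 to 0.91 (adjusted p = 0.66). For Krt71 the irradiated arrays were 11.02, 12.70, 10.16 and 13.32, and the difference of -1.38 had an interval from -2.86 to 0.09. Array A was below all 4 sham arrays of AG825 skin for Krt71, for Krt27, at 10.81, and for Tgm3, at 7.83. For Tgm3 both tools called the probe set absent on array A, and GCOS alone did on D. For Krt25 array A was level with the lowest sham array, both at 12.44. For Tchh, at 10.75, and Padi3, at 10.03, it was above sham array D alone, at 10.12 and 9.45. The other sham arrays were higher than array A in both genes, at 11.91 or more for Tchh and 11.38 or more for Padi3. Array D was the lowest in 5 of the 6 genes, with Tchh at 8.12 and Padi3 at 7.51.

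At 24 h after UV in AG825 skin 0 of 6 genes passed, against 4.85% of probe sets and 1.49% lower, and Tgm3 alone had an unadjusted p under 0.05, as did 20.6% of probe sets. Krt25 was 12.13, 12.32 and 13.08 on arrays A, B and C, and its difference from sham was -0.64 (95% interval -2.58 to 1.30, adjusted p = 0.693). Padi3 was 9.41, 9.94 and 10.01, with a difference of -1.17 (interval -2.61 to 0.26). Tgm3 was 8.20, 8.23 and 8.16, the narrowest spread of any gene and group here, with a difference of -1.04 ± 0.46 (limma, adjusted p = 0.21). Its sham arrays B, C, D and E were at 9.12, 9.54, 8.11 and 10.16, and the groups overlapped only through sham array D. When arrays were weighted by quality, Krt71, Padi3 and Tgm3 passed, as did 9029 probe sets in all, with array A of this group given a weight of 7.65. From 6 h to 24 h in AG825 skin no gene passed either, against 0.229% of probe sets, and none had an unadjusted p under 0.05, as 25.2% of probe sets did. The differences ran from -0.35 for Tgm3 to 0.78 for Tchh.

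**Figure D2:**
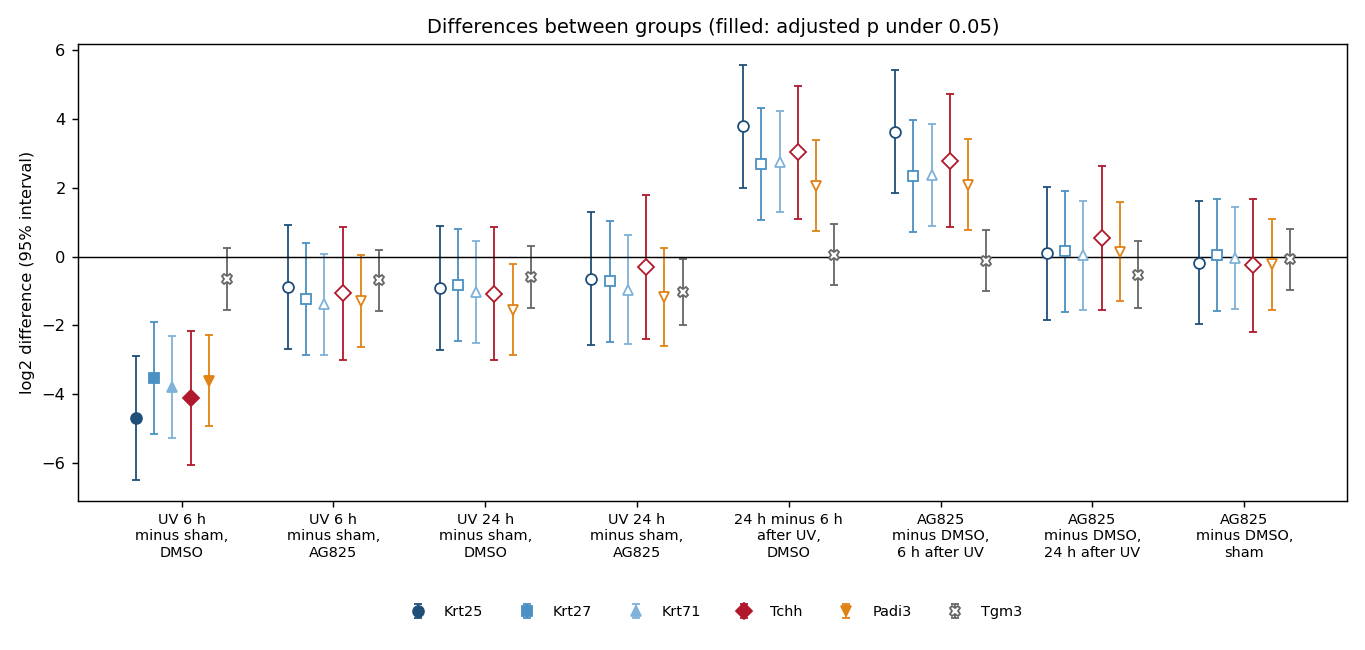
Log2 difference between groups (vertical axis) with its 95% interval for each of the 6 genes in 8 comparisons; filled symbols passed at an adjusted p under 0.05. The only filled symbols are the 5 falls at 6 h after UV in DMSO skin, between -4.69 and -3.51.

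The drug itself was compared with DMSO at each time. In sham skin no gene passed, where 0% of probe sets did, and none had an unadjusted p under 0.05, as 0.982% of probe sets did. The differences ran from -0.25 for Tchh to 0.06 for Krt27, and the interval for Krt25 was from -1.97 to 1.62, which still allows changes of over 3-fold either way. At 24 h after UV no gene passed (0% of probe sets) and none had an unadjusted p under 0.05 (10.6% of probe sets), with differences between -0.52 and 0.53. The lowest of these was Tgm3, the only 1 of the 6 genes whose arrays did not overlap, with 8.16 to 8.23 in AG825 skin and 8.36 to 9.10 in DMSO skin; 10.1% of probe sets were lower without overlap.

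At 6 h after UV the AG825 arrays had higher mean values than the DMSO arrays in 5 genes. The log2 difference was 3.64 ± 0.86 for Krt25, with a 95% interval from 1.84 to 5.43, 2.33 for Krt27, 2.37 for Krt71, 2.79 for Tchh and 2.09 for Padi3, and -0.11 for Tgm3. None passed in limma, where 0% of probe sets did, and the smallest adjusted p was 0.295 for Krt25. All 5 had an unadjusted p under 0.05, as did 4.37% of probe sets in the higher direction. The groups overlapped in all 6 genes, and 1.21% of probe sets were higher without overlap. For example, AG825 array D had 10.53 for Krt25, below DMSO array C at 11.64. Without that DMSO array C, Krt25 alone passed, at 4.64 (adjusted p = 0.0448), in a fit whose share of all probe sets passing is not given here. The test of the difference between the UV effects of the 2 skins at 6 h gave 3.81 ± 1.22 for Krt25 (95% interval 1.27 to 6.35, adjusted p = 0.593) and 2.27 to 3.04 for Krt27, Krt71, Tchh and Padi3. No gene passed it (0% of probe sets), and 4 had an unadjusted p under 0.05, where 3.69% of probe sets were higher. The falls at 6 h, the rises to 24 h and these drug comparisons all use the same 4 DMSO arrays at 6 h. At 24 h the difference between the UV effects had a median of 0.18, with 0 genes passing (0.00509% of probe sets) and none at an unadjusted p under 0.05 (5.34%).

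Placed in order of group means, Krt25, Krt71, Tchh, Padi3 and Tgm3 were highest in DMSO sham and Krt27 in AG825 sham, followed by the other sham group in each case. DMSO 6 h was lowest in the 5 genes that fell. For Krt25 the group means were 13.32 ± 0.20 (SD, n = 4) in DMSO sham, 13.15 ± 0.47 in AG825 sham, 12.51 ± 0.51 (n = 3) in AG825 24 h, 12.41 ± 1.11 in DMSO 24 h, 12.27 ± 1.21 in AG825 6 h and 8.63 ± 2.66 in DMSO 6 h. Neighbours in this order overlapped in the range of their arrays in every gene. For Tgm3 the lowest group was AG825 24 h at 8.20, and its 6 means covered only 9.31 to 8.20. Across all 23 arrays Tgm3 spanned 2.32 on the log2 scale, Padi3 4.72 and Krt25 7.46.

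Within groups, the 5 other genes were high and low on the same arrays, Padi3 less closely. After group means were removed, the correlation of Krt27 with Krt71 over the 23 arrays was 0.986, and the 10 pairs without Tgm3 ran from 0.765 to 0.986. The 5 pairs with Tgm3 ran from 0.560 to 0.688. The arrays that set this pattern were DMSO 6 h E and F, AG825 sham D, which was lowest of its group in all 6 genes, DMSO 24 h E and AG825 6 h D, which were lowest in 5. All these correlations share the arrays, and with them the skin piece and its RNA.

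**Figure D3:**
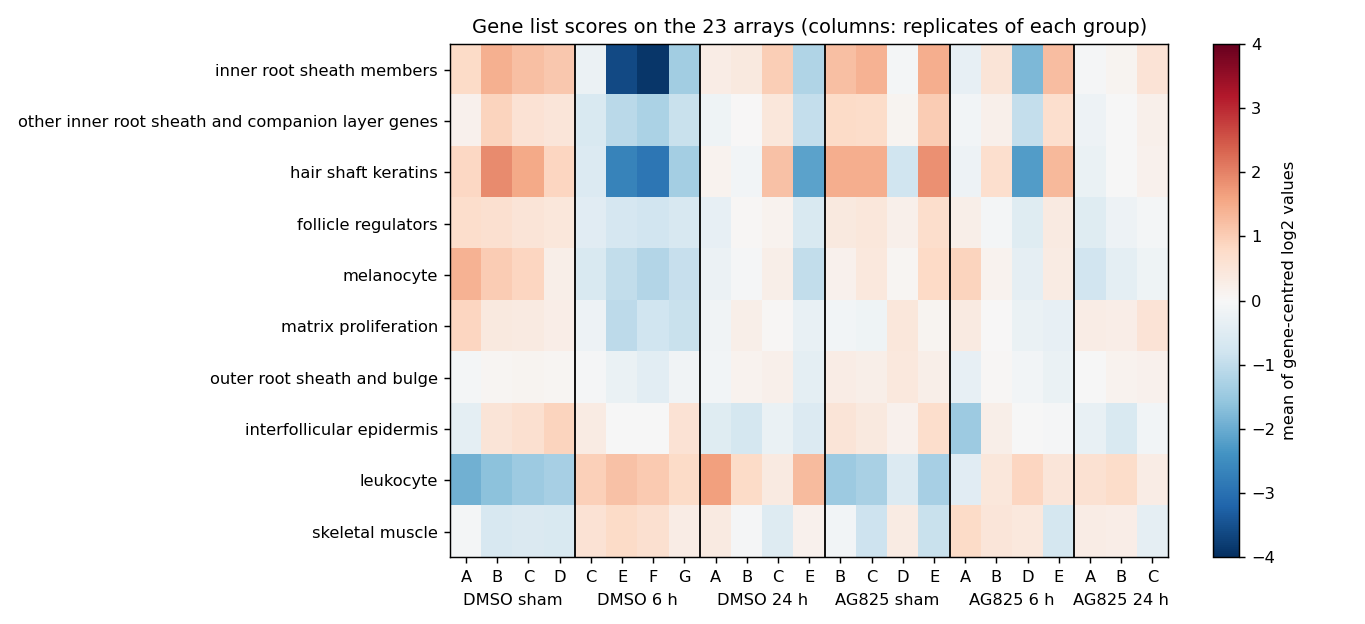
Score of each gene list (rows) on each of the 23 arrays (columns, grouped by drug and time with the replicate letter): the mean over the list of log2 values centred per gene, from blue (low) to red (high). The inner root sheath and hair shaft rows are low together on DMSO 6 h E and F, DMSO 24 h E and AG825 6 h D.

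Other genes of the inner root sheath fell in DMSO skin at 6 h. Of 8 listed for the sheath and the neighbouring companion layer, 6 were measured and 5 fell, with a median difference of -1.87. They were the regulators Gata3, needed for the sheath to form in mice, at -1.86 ± 0.22 (limma, adjusted p = 1.05e-05), Dlx3 at -2.29 ± 0.34 and Cux1 at -0.76 ± 0.19, the companion layer keratin Krt75 at -1.87 ± 0.45, and Krt72, the neighbour of Krt71, at -2.56 ± 0.75. The protease gene Ctsl had 0.37 ± 0.32 and did not pass. Krt72 and Ctsl were named after their values had been seen. Gata3 also fell where the structural genes did not pass: at 24 h in DMSO skin by 1.45 (adjusted p = 0.000227), and in AG825 skin by 1.02 at 6 h (adjusted p = 0.0144) and by 1.00 at 24 h (adjusted p = 0.0188). Dlx3 fell at 24 h in DMSO skin, with -1.31 (adjusted p = 0.0185). Whether the effects on Gata3 and on the keratins differ was not tested.

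The enzyme families did not move as one. Of 11 other peptidylarginine deiminases and transglutaminases 6 were measured. Padi1, next to Padi3 on chromosome 4, fell by 1.74 and Padi4, on its other side, by 0.91 (limma, adjusted p = 0.0152 and 0.0265). Tgm2, the tissue transglutaminase, rose by 1.48 (adjusted p = 0.00026) and F13a1, the coagulation transglutaminase carried by macrophages, by 1.82 (adjusted p = 0.000333). Padi2, at 0.29, and Tgm1, the epidermal transglutaminase, at 0.08, did not pass. The median of the 6 was 0.19.

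Genes of the hair shaft, which the sheath encloses, were lower on the same irradiated arrays: 10 of 11 measured hair shaft keratins fell at 6 h in DMSO skin, with a median of -3.06. Krt35, an early keratin of the shaft, was at -3.80 ± 0.63 and Krt32, of the cuticle, at -2.45 ± 0.42. Only 1 passed at 24 h in DMSO skin, Krt32 at -1.40, and 0 of 11 passed in AG825 skin at either time. Of 16 follicle regulators, a list that also holds Gata3, Dlx3 and Cux1, 13 fell at 6 h in DMSO skin, 8 at 24 h, and 2 and 5 at these times in AG825 skin. Of 7 measured outer root sheath and bulge genes 3 fell and Cd34 rose at 6 h in DMSO skin, with a median of -0.45, and of 5 dermal papilla genes 3 fell, also with a median of -0.45.

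Markers of other cells moved with the fall at 6 h in DMSO skin. Of the 5 leukocyte markers measured all rose, with a median of 2.48, and their summed log2 level went from 10.27 to 10.93 in sham to 13.18 to 13.55. Of 5 skeletal muscle markers 3 rose, with a summed level of 14.25 to 14.73 in sham and 15.00 to 15.37 at 6 h. All 6 melanocyte genes fell, from 11.99 to 13.20 in sham to 10.39 to 11.23, and 6 of 7 proliferation genes fell, from 12.87 to 13.40 to 12.03 to 12.48. Interfollicular epidermis moved less: 2 of 8 genes fell, Krt5 at -0.47 and Ivl at -1.13, where 10.7% of all probe sets were lower. The median of the 8 was -0.07, and their summed level was 15.21 to 16.19 in sham and 15.42 to 16.07 at 6 h. None of 5 sebocyte and none of 3 adipocyte genes passed. The summed level of the 6 inner root sheath genes was 14.78 to 15.31 in sham and 9.76 to 13.54 at 6 h. The part of these other markers in the fall was not tested.

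**Figure D4:**
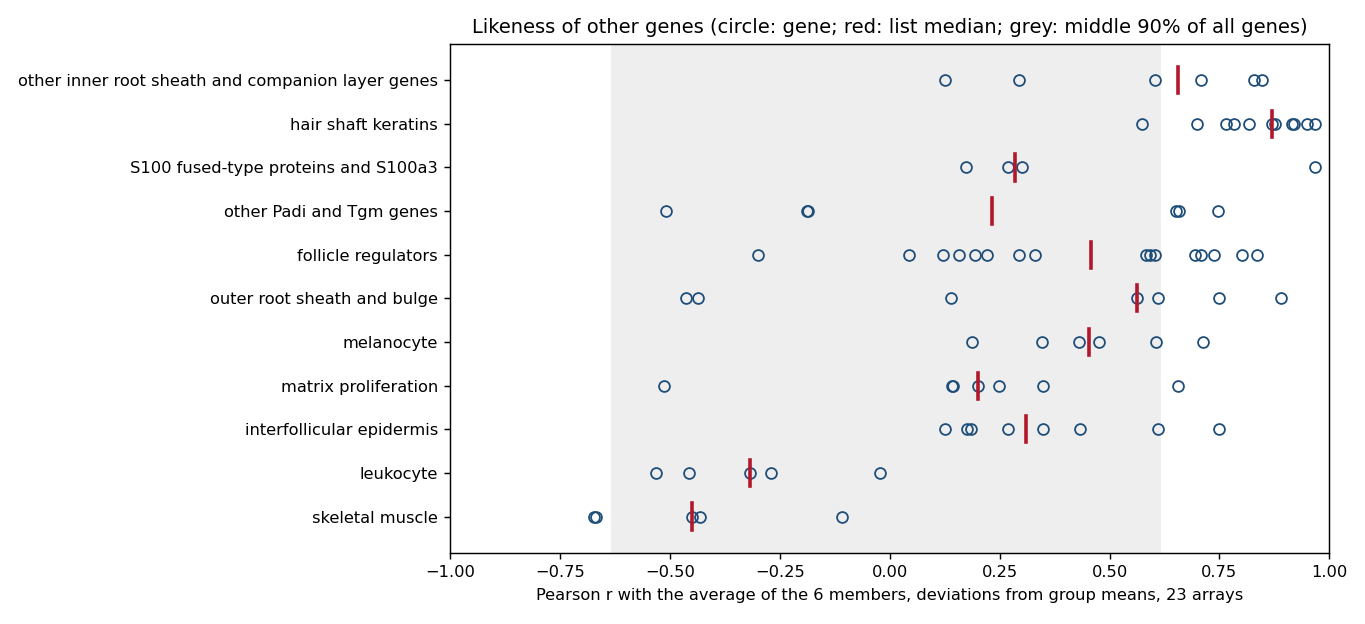
Pearson correlation over 23 arrays (horizontal axis) between each listed gene (circles) and the average of the 6 inner root sheath genes, both as deviations from group means; red bars are list medians and the grey band holds the middle 90% of all genes, from -0.63 to 0.62. Hair shaft keratins lie at the right, with a median of 0.870, and leukocyte and muscle genes at the left.

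Which genes were most like the inner root sheath genes was judged by the Pearson correlation of deviations from group means with the average of the 6 genes, over 23 arrays and 12100 other genes. The median over all genes was -0.10, and 19 genes exceeded 0.9. The 10 highest were Krt33a at 0.969, S100a3 at 0.967, Krtap8-1 at 0.964, Gm10229 at 0.963, Krtap15 at 0.956, Krtap6-5 at 0.951, Krt34 at 0.949, Krtap16-3 at 0.949, Gm10228 at 0.944 and Krtap19-9b at 0.933. Of these, Krt33a and Krt34 are keratins of the hair cortex, S100a3 is a calcium-binding protein of the hair cuticle and, in human hair, a substrate of PADI3, and the Krtap genes encode keratin-associated proteins of the shaft. With the values as they are, group means included, S100a3 came first at 0.981 and Krt33a second at 0.977. The sheath keratin Krt72 had 0.848, Krt75 0.828 and Gata3 0.604. Hair shaft keratins had a median of 0.870, melanocyte genes 0.453, leukocyte markers -0.318 and muscle markers -0.451. These are descriptions over arrays that share skin pieces and RNA.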

How the data were processed

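RNA of whole skin was hybridised to Affymetrix MOE430A arrays. The main values are log2 intensities for 19645 probe sets on 23 arrays, which the authors computed by RMA, as the submitters' processing notes state. Signal on a linear scale, with detection calls, was deposited as made with dChip (23 arrays) and GCOS (22 arrays), per the file headers, and served for alternatives. Versions and settings of RMA, dChip and GCOS are not given in the sources used here.

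Probe sets were named through the platform annotation: 17825 name 1 gene, 445 several and 1375 none. A model with 1 mean for each of 6 groups was fitted to all probe sets (limma 3.58.1, R 4.3.3, eBayes), with 11 two-sided comparisons, each adjusted over all probe sets by the Benjamini-Hochberg method. The steps were tested on simulated data. Replicate letters were not taken as pairs in the main model, and a fit with the letters as a block served as an alternative. Deviations of same-letter arrays correlated between -0.23 and 0.67, with a median of 0.17, over 0.1 in 21 of 35 pairs. For arrays of different letters the median was -0.03, over 0.1 in 62 of 185 pairs. Same-letter arrays thus had the higher median, and whether arrays of one letter share variation was not tested. A list score is the mean of gene-centred log2 values, and a summed level is the log2 of the sum of the linear values.

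The genes, the 14 companion lists and the tests were chosen with earlier results of these data known. Named were the 6 measured genes, up to 4 genes of a list that passed with the smallest adjusted p, and the 10 most alike genes. Arrays give no counts, and their number limits precision.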

Additional observations from a re-analysis of the deposited data

Results flagged for a closer look

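In 30 sets of 4 arrays, 1 for each of the 6 genes and 5 groups, the gap between the lowest or highest array and its neighbour was compared with the whole range, by Dixon's ratio and its 95% critical value for 4 values. By chance about 1 in 20 sets would exceed it, and 5 did. In AG825 sham skin replicate D was far below the other arrays for Krt25 (ratio 0.876), Krt27 (0.850), Tchh (0.905) and Padi3 (0.891). Tchh was 10.12 on D, and the next array was at 11.91. Padi3 was 9.45 on D, with the next at 11.38. The 4 ratios come from a single array, whose percent present of 71.0 was the highest of its group. When arrays were weighted by quality, however, this array had a weight of 0.375, the lowest of all arrays. The other arrays of its group had weights from 1.31 to 1.87. In DMSO skin at 24 h after UV, replicate E was far below for Krt25 (0.835), at 10.77 with the next array at 12.77.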

How the results depend on the processing

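Across 11 alternatives for UV against sham at 6 h in DMSO skin, Krt25 (-5.55 to -2.47), Krt71 (-4.59 to -2.31) and Padi3 (-4.11 to -2.98) kept their calls, and Krt27 and Tchh lost theirs in 1, the fit without the 3 arrays of lowest percent present (3 genes called), which has fewer arrays. In this comparison each fit that left out 1 array called 5. With the replicate block, which changed no other count of calls, 1 gene (Padi3) was called at 24 h in DMSO skin; replicate letters F and G occur in 1 group only. Array weights called 3 genes at 24 h in AG825 skin and 4 for 24 h against 6 h in DMSO skin. For this last comparison the fits that left out 1 array called 0 to 4, and for AG825 against DMSO at 6 h 0 to 1. The causes were not tested. Beside these counts the share of all probe sets called in each alternative fit is not given. No called difference turned its sign; among differences called in neither fit 120 did, over 34 alternative fits, the largest of them 0.78 in size in the model as reported. Other probe sets of a gene could not be tried, since each has 1. Where a gene is called absent on DMSO 6 h arrays E or F, its true level there may be lower than the value measured.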

Other observations

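Trichohyalin belongs to the S100 fused-type family, whose members Flg, Hrnr and Rptn were also followed in DMSO skin. At 6 h after UV Flg, which encodes the barrier protein filaggrin, had a log2 difference from sham of -0.17 ± 0.67, Hrnr 0.14 ± 0.62 and Rptn, the neighbour of Tchh, 0.44 ± 0.91, and none passed. At 24 h Flg fell by 2.23 (limma, adjusted p = 0.0398), while Hrnr had -1.92 (adjusted p = 0.0571) and Rptn -0.66. Of 8 epidermal genes, a list that also holds Flg, 5 fell at 24 h with Flg counted, where 3.83% of all probe sets were lower. Among them were Lor, a cornified envelope protein, at -1.23 (limma, adjusted p = 0.000722) and Ivl, involucrin, at -1.23 (adjusted p = 0.0198). Ivl had already fallen at 6 h, at -1.13 (limma, adjusted p = 0.0183), whereas Lor, at -0.12, had not passed then. Tchh was at -1.07 at 24 h and did not pass. Whether the courses of Tchh and Flg differ was not tested.

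Krt17, a keratin of the outer root sheath and of stressed epidermis, was like the inner root sheath genes within groups, with a correlation of 0.890 over 23 arrays, yet its difference at 6 h in DMSO skin was -0.45 ± 0.29 and did not pass. At the other end of the ranking were Vit at -0.889, Gypc at -0.884 and Gspt2 at -0.873.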
